A study of Mus musculus with 2 samples.

Results

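Microglia, the resident macrophages of the brain, carry a set of surface and secreted molecules in the undisturbed state by which they are told apart from other macrophages. The genes described here are 9 such markers, *Tmem119*, *Gpr34*, *Olfml3*, *Sparc*, *Selplg*, *Siglech*, *Slc2a5*, *Lag3* and *Aif1*. They were chosen by name, as all probe sets of the array whose annotation gives exactly 1 gene symbol and that symbol one of the listed genes. This gave 11 of the 34945 probe sets with exactly 1 symbol, or 9 of 18193 named genes, and no probe set shared a listed symbol with another gene. The product of *Aif1*, Iba1, is an actin-binding protein of the cytoplasm, so the description as surface or secreted does not hold for it. Homeostatic microglial genes depend on TGF-β signaling and on transcription factors such as PU.1 and SALL1, and many of them are known to be reduced when microglia take on an activated, CD11c-positive state. CD47 is a membrane protein that binds SIRPα, an inhibitory receptor of microglia, and the comparison asks how its loss bears on gene expression in these cells.

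RNA was prepared from brain mononuclear cells, collected from digested whole brain at a Percoll interface, of 7 WT mice (10 to 15 wks of age) and of 6 CD47 KO mice (12 to 16 wks of age). RNA was pooled by genotype and each pool was hybridised to 1 GeneChip Mouse Genome array, so there are no replicates, no test was possible and the error between animals is unknown. The CD47 KO mice lack *Cd47* in all cells, and the sources used here do not name their strain background. Expression was deposited as MAS5 signals, which give the brightness of a probe set on a linear scale, and differences are given as the Log2 ratio (KO/WT) of the signals. *Cd47* had Log2 ratios between -1.45 and -1.86 on its 5 probe sets. The labels give both pools as male, but *Xist*, the RNA of X inactivation, had signals of 7070 (WT) and 6530 (CD47 KO), while *Eif2s3y*, a Y-linked gene, had 189 and 461. The 9 hybridization controls had Log2 ratios between -0.01 and 0.15, with a median of 0.06. The ratio of 3′ to 5′ signal of *Gapdh*, a measure of RNA integrity, was 2.06 in WT and 2.16 in CD47 KO cells.

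All 9 genes had a higher signal in CD47 KO than in WT cells, and the differences were small. On the brightest probe set of each gene they ranged from 1.10-fold for *Sparc* to 1.52-fold for *Lag3*, and the median Log2 ratio was 0.19. Over all 11695 expressed genes, those with a probe set at or above the median of its array in at least 1 genotype, the median was 0.00335 and 50.3% were higher. None of the 9 genes passed 2-fold, in either direction. Among all 21167 expressed probe sets, 3.95% were more than 2-fold higher and 5.49% more than 2-fold lower. Expressed probe sets were divided into 4 equal classes by their mean signal on the log scale, because dim probe sets scatter more widely. In the brightest 25%, which holds 8 of the 9 genes, 0.699% were past 2-fold in either direction.

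**Figure D1:**
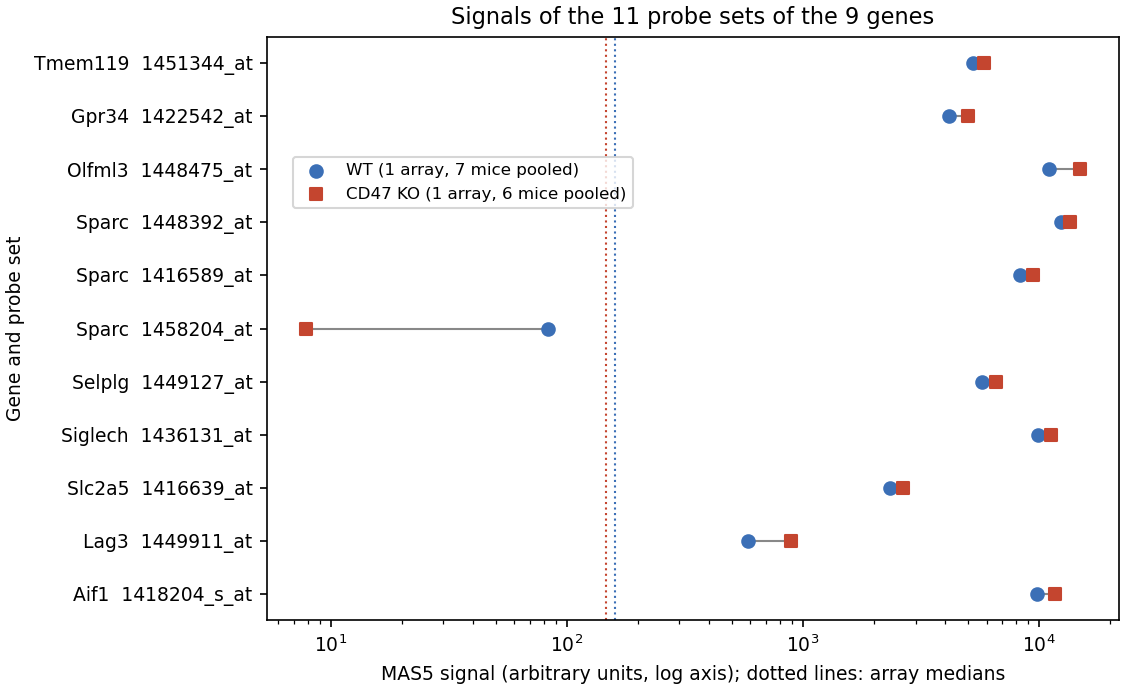
MAS5 signals (arbitrary units, log axis) of the 11 probe sets of the 9 genes in WT cells (circles) and CD47 KO cells (squares), 1 array each, with the array medians of 161 and 146 as dotted lines. The CD47 KO signal lies to the right of the WT signal on 10 probe sets, and only the dim *Sparc* probe set 1458204_at lies below both medians, with the CD47 KO signal lower.

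Signals of very bright probe sets were shifted upwards on the CD47 KO array in general. The share of probe sets that were higher was 59.1% in the brightest 25%, with a median Log2 ratio of 0.05, and 71.4% in the brightest 5%, with a median of 0.07. The band of the brightest 5% was added after the plot of ratios had been seen. It holds 1059 probe sets, among them 7 of 6 of the listed genes (*Tmem119*, *Olfml3*, *Sparc*, *Selplg*, *Siglech* and *Aif1*), and all 7 had a Log2 ratio above the median of the band. The direction of these genes is therefore read against this shift. On their brightest probe sets, *Sparc* (0.13) and *Tmem119* (0.15) also lay within the range of the hybridization controls. Error could be gauged only from the spread between probe sets of a gene, taken as the SD of the difference between the Log2 ratios of its 2 brightest expressed probe sets, divided by the square root of 2. It was 0.24 in the brightest 25% (1634 genes), 0.42 in the next 25% (1753 genes) and 0.11 in the brightest 5% (288 genes). It holds probe effects and splice forms and does not measure the spread between mice.

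**Figure D2:**
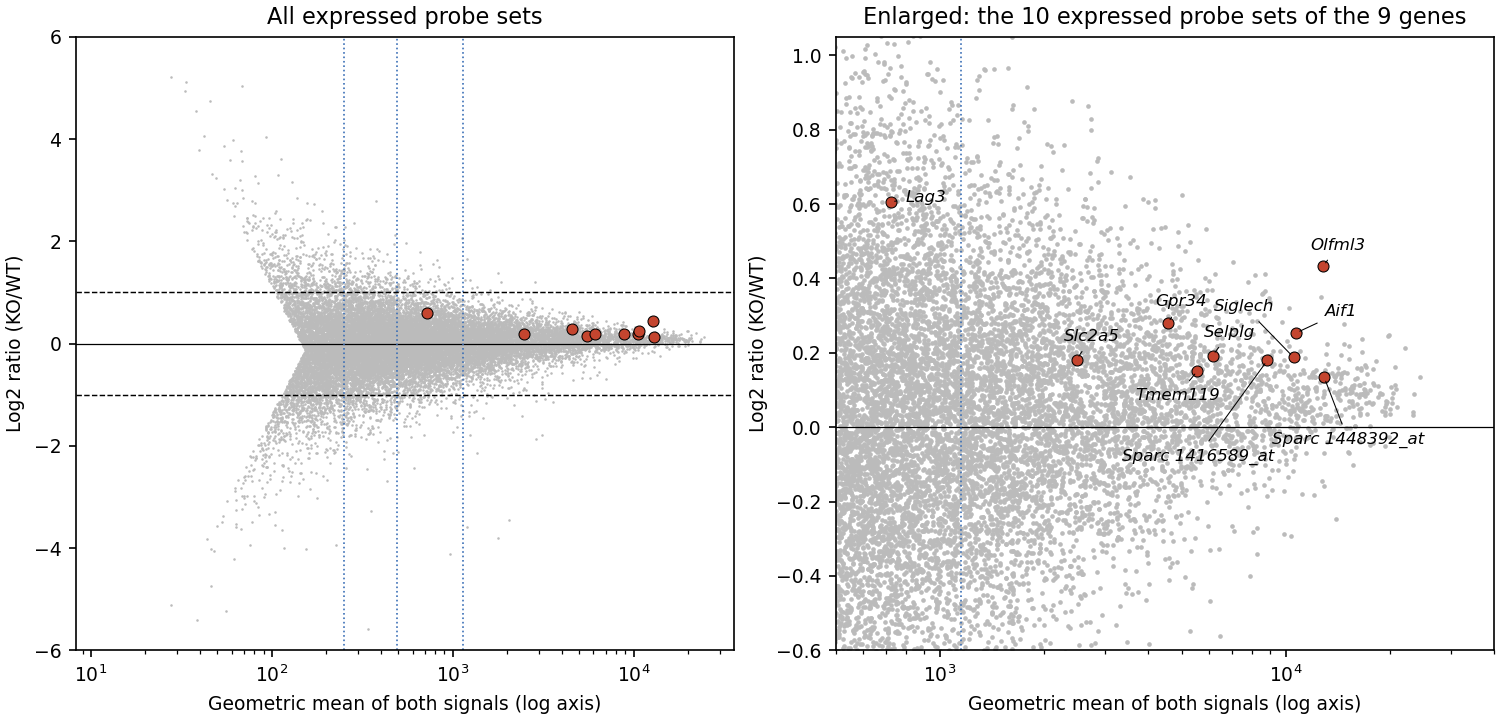
Log2 ratio (KO/WT) against the geometric mean of the WT and CD47 KO signals (log axis) for all expressed probe sets (grey) and the 10 expressed probe sets of the 9 genes (red), with dashed lines at 2-fold and dotted lines between the 4 classes of brightness. The right panel enlarges the range of the 9 genes, where *Olfml3* at 0.43 stands above most probe sets of like brightness and the others lie at 0.13 to 0.28, apart from the dimmer *Lag3* at 0.61.

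The secreted proteins were represented by *Olfml3* and *Sparc*. *Olfml3* encodes an olfactomedin-like glycoprotein of the extracellular matrix. The WT signal of its probe set 1448475_at was 11054 and the CD47 KO signal 14922, a 1.35-fold higher value with a Log2 ratio of 0.43. Of the 1059 probe sets in the brightest 5%, 9 had a larger Log2 ratio. The value was 1.83 times the SD between probe sets of the brightest 25% and 4.12 times that of the brightest 5%. Neither multiple takes off the shift of bright probe sets, and the value lay 0.36 above the median of the brightest 5%. Of the olfactomedin relatives, 5 of 7 named genes were expressed, 4 were higher and none passed 2-fold on its brightest probe set. *Olfm1*, a secreted glycoprotein gene of neurons, was the brightest of them, with Log2 ratios of 0.16, 0.53 and -0.11 on its 3 probe sets. *Olfml2b*, the only other olfactomedin-like gene expressed, was dim at 121 and 206.

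*Sparc* encodes osteonectin, a secreted matricellular protein that binds calcium and collagen. Its probe set 1448392_at had signals of 12345 and 13545 and a Log2 ratio of 0.13, and 1416589_at had 8318 and 9422 and a Log2 ratio of 0.18. Both bright probe sets were thus higher in CD47 KO cells, by less than the SD between probe sets of the brightest 25%. The remaining probe set of the gene, 1458204_at, had a WT signal of 83.1 and a CD47 KO signal of 7.86, a Log2 ratio of -3.40. Both signals lay below the array medians of 161 and 146, so it was not counted as expressed. After loess normalization, which removes a trend of the ratio with brightness, the value of 1448392_at was 0.05.

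*Sparc* is also made by astrocytes, endothelial cells and fibroblasts. The markers of these cells were divided in direction. Of 13 expressed astrocyte markers, 11 were higher in CD47 KO cells, with a median Log2 ratio of 0.32 and a summed signal of 28457 in WT and 35501 in CD47 KO cells. *Slc1a2*, the astrocytic glutamate transporter gene, had 8851 and 10762. Of 16 expressed endothelial markers, 14 were lower, with a median of -0.42 and sums of 24250 and 20585. *Cldn5*, encoding a tight junction protein, had 1961 and 1420. Of 14 fibroblast and meningeal markers, 12 were lower, with a median of -0.82 and sums of 24057 and 19219. The part of these cells in the *Sparc* signal was not tested, and in pooled bulk RNA fewer cells of a type and less RNA per cell cannot be told apart. Among the relatives of *Sparc*, 9 of 12 named genes were expressed, with 5 higher, 4 lower and a median of 0.04. *Sparcl1*, an astrocytic relative, had 1048 and 1587. *Ccn1* and *Ccn2*, matricellular genes of matrix-producing cells, were more than 2-fold lower on their brightest probe sets, with -1.57 and -1.01. These were dim, at 419 and 141 for *Ccn1* and 326 and 162 for *Ccn2*. Both lay in the dimmest 25% of expressed probe sets, where 25.6% of all probe sets were past 2-fold. The CD47 KO signal of *Ccn1* was below its array median of 146, so it counted as expressed only through WT. Dimmer *Ccn1* probe sets had values between -1.57 and 1.16.

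The receptors of the surface included *Gpr34*, which encodes a G protein-coupled receptor for lysophosphatidylserine. Its probe set 1422542_at had signals of 4141 and 5027 and a Log2 ratio of 0.28, which was above that of 84.8% of the probe sets in the brightest 25% and 1.18 times the SD between probe sets. Of its receptor relatives and the enzymes that form or break down its ligand, 8 of 12 were expressed, 4 higher and 4 lower, and none passed 2-fold on its brightest probe set. The lipase gene *Abhd12*, whose product degrades lysophosphatidylserine, had 5015 and 5949, a Log2 ratio of 0.25. *Gpr183*, the oxysterol receptor gene, had 0.38 and -0.13 on its 2 probe sets. *Ptdss1*, a phosphatidylserine synthase gene, had 0.29. *Ptdss2*, which encodes the other synthase, had -0.35 on its brightest probe set and values between -1.05 and 1.33 on dimmer ones.

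*Siglech* encodes a sialic acid-binding lectin that signals through DAP12 and is shared by microglia and plasmacytoid dendritic cells. The probe set 1436131_at had signals of 9876 and 11250 and a Log2 ratio of 0.19, or 0.11 after loess normalization. *Tyrobp*, which encodes DAP12, had 16223 and 17617 and a Log2 ratio of 0.12. Within the Siglec family and its adaptors, 8 of 11 named genes were expressed, 5 were higher and 3 lower, with a median of 0.25. The largest differences were on dimmer probe sets. *Siglecf* had 206 and 570, the only brightest probe set of the list past 2-fold, and *Siglece*, an inhibitory Siglec gene of myeloid cells, had 411 and 715. *Cd33*, likewise an inhibitory Siglec gene, was brighter with 2899 and 3765, a Log2 ratio of 0.38. Among the 3 lower genes, *Syk*, a tyrosine kinase gene, had -0.31 on its brightest probe set and -0.54 to -1.02 on its other ones. *Hcst*, an adaptor gene, had -0.17. Of the plasmacytoid dendritic cell markers, 8 of 10 were expressed, 4 higher and 4 lower, with a median of 0.02 and sums of 22193 and 24168.

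*Selplg* encodes PSGL-1, the mucin-like ligand of the selectins, which is carried by most leukocytes. The probe set 1449127_at had signals of 5749 and 6570 and a Log2 ratio of 0.19, above that of 84.4% of the brightest 5%. Among the selectins and the genes whose products glycosylate, sulfate or anchor PSGL-1, 9 of 14 were expressed, 6 were higher, 3 lower and none past 2-fold, with a median of 0.04. *Gcnt1*, encoding the enzyme that starts core 2 branches, had 2908 and 3360. The sulfotransferase genes *Tpst1* and *Tpst2* had Log2 ratios of -0.04 and -0.10. Leukocytes other than microglia also carry PSGL-1, and their markers differed in direction. Of 12 neutrophil markers 10 were lower, with a median of -0.36 and sums of 83822 and 77831, and of 11 monocyte markers 10 were lower, with a median of -0.40 and sums of 28044 and 22656. *S100a9* and *S100a8*, the brightest neutrophil genes, were higher by 0.09 and 0.16. Of the T and NK cell markers 5 of 9 were higher. The part of these cells in the *Selplg* signal was not tested.

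*Tmem119* encodes a single-pass membrane protein that is widely used to tell microglia from infiltrating macrophages. The probe set 1451344_at had signals of 5273 and 5857 and a Log2 ratio of 0.15, above that of 77.2% of the brightest 5%. The values were 0.09 after loess and 0.09 after quantile normalization. *Slc2a5* encodes the fructose transporter GLUT5, which in the brain is largely microglial. Its probe set 1416639_at had signals of 2333 and 2647 and a Log2 ratio of 0.18. The other sugar transporter genes and those of fructose breakdown did not share this direction as a group. Of 11 expressed of 16 named genes, 4 were higher and 7 lower, with a median of -0.10. *Khk*, which encodes the first enzyme of fructose breakdown, had 2852 and 2763. *Slc2a1*, the glucose transporter gene of the blood-brain barrier, had 7576 and 7060 on its brightest probe set and Log2 ratios of 0.14 and 0.02 on its other ones. *Slc2a13*, a myo-inositol transporter gene with 229 and 519, was the only one past 2-fold.

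*Lag3*, an inhibitory receptor gene known from T cells that binds MHC class II, had the largest Log2 ratio of the 9 and the dimmest expressed probe set. The WT signal of 1449911_at was 583 and the CD47 KO signal 888, a 1.52-fold higher value with a Log2 ratio of 0.61. This was 1.45 times the SD between probe sets of its class, and 93.2% of the probe sets in that class had a lower value. With the 25th percentile of each array added to its signals it was 0.56. Of the 9 expressed T and NK cell markers 5 were higher and 4 lower, with a median of 0.10 and sums of 7953 and 8675. *Cd3g* had 668 and 1138 and *Cd8a* had 942 and 503 on its brightest probe set and a Log2 ratio of 0.09 on the other expressed one, while both probe sets of *Cd4* lay below the array medians. The part of these cells in the *Lag3* signal was not tested. Of the ligands and coinhibitory receptors, 12 of 16 were expressed, 7 higher and 5 lower, with a median of 0.05. The MHC class II genes *H2-Aa*, *H2-Ab1* and *H2-Eb1*, which encode chains of the *Lag3* ligand, had Log2 ratios of 0.12, 0.10 and -0.13 on their brightest probe sets, and another *H2-Aa* probe set had -0.52. *Havcr2*, encoding the inhibitory receptor TIM-3, had 552 and 799, a Log2 ratio of 0.53. *Fgl2*, with 76.7 and 185, and *Btla*, with 410 and 94.6, were past 2-fold, higher and lower, on dim probe sets. Both lay in the dimmest 25% of expressed probe sets, where 25.6% of all probe sets were past 2-fold.

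*Aif1* encodes Iba1, the usual stain for microglia in tissue, which bundles actin at membrane ruffles. Its only probe set, 1418204_s_at, had signals of 9813 and 11698 and a Log2 ratio of 0.25, above that of 92.2% of the brightest 5%. The ending of its name marks probes that can bind more than 1 transcript. Of the genes for actin bundling and its control, 10 of 12 were expressed, 7 higher and 3 lower, with a median of 0.07. *Lcp1*, which encodes the actin bundler L-plastin of leukocytes, had 6786 and 7733, a Log2 ratio of 0.19. *Rac1*, encoding a small GTPase of membrane ruffling, had 0.11 and *Rac2*, the form of blood cells, had -0.31. Iba1 is also present in border macrophages and monocytes. All 6 expressed markers of border macrophages, of 12 named, were lower in CD47 KO cells, with a median of -0.60 and sums of 4318 and 3028. A threshold at the 75th percentile instead of the median gave -0.29. *Mrc1*, their mannose receptor gene, had 522 and 228. Their part in the *Aif1* signal was not tested.

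In order of Log2 ratio the genes were *Lag3* (0.61), *Olfml3* (0.43), *Gpr34* (0.28), *Aif1* (0.25), *Selplg* (0.19), *Siglech* (0.19), *Slc2a5* (0.18), *Tmem119* (0.15) and *Sparc* (0.13). Each of the 8 steps between neighbours was smaller than the SD of a difference between single probe sets of their classes. Within the brightest 5%, where the SD of such a difference was 0.15, *Olfml3* stood above the next gene, *Aif1*, by 0.18 and the other steps were at most 0.06. Signals of different probe sets are not on a common scale of transcript abundance, so no order of expression is given.

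Most other homeostatic genes of microglia were higher as well. Of 30 expressed genes for further surface and secreted proteins 27 were higher and 3 lower, none past 2-fold, with a median Log2 ratio of 0.14 and summed signals of 197358 and 219839. Among all expressed genes 50.3% were higher. Of the 30, 26 lay in the brightest 25%, where 59.1% of all probe sets were higher. After loess normalization the median of the 30 was 0.08. *Csf1r*, the survival receptor gene, had 15185 and 15949. *P2ry12*, the ADP receptor gene of microglial processes, had 6873 and 7608, and *Fcrls*, an Fc receptor-like gene, had 8041 and 10154. On the brightest probe sets, the largest differences were those of *Cx3cr1*, *Il10ra*, the interleukin-10 receptor gene, and *Pros1*, encoding a bridging molecule for phagocytosis. *Cx3cr1* had 0.66 and 0.21 on its 2 probe sets, *Il10ra* had 0.60, 0.05 and 0.79 on its 3, and *Pros1* had 0.59. The lowest value was that of *Gas6*, with -0.37. *Lair1* had 0.02 and 0.04 on its 2 brighter probe sets and -0.84 on a dimmer one. Of 19 genes for intracellular and nuclear proteins 15 were higher and 4 lower, with a median of 0.17, or 0.11 after loess normalization. In this list 12 of the 19 lay in the brightest 25%. Among the lower ones, *Bin1* had 1897 and 1260 on its brightest probe set, a Log2 ratio of -0.59, and 0.22 on the other expressed one. *Sall1* had 3940 and 4005 on its brighter probe set and a Log2 ratio of -0.58 on the other, *Mef2c* had 5187 and 5765 and *Spi1*, which encodes PU.1, had 991 and 1134. *Sall3* was past 2-fold, on a probe set that was dim in both genotypes at 25.9 and 187 and counted as expressed only through CD47 KO. The type I TGF-β receptor gene *Tgfbr1* had a Log2 ratio of 0.19 and *Tgfbr2* had -0.03, or 0.52 on a dimmer probe set.

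Genes of CD11c-positive activated microglia had a larger median Log2 ratio, though 7 of the 19 expressed lay within the range of the 9 genes. Of 19 expressed, 18 were higher and 8 passed 2-fold, with a median of 0.74, or 0.53 where the signal had to reach the median on both arrays. All of the 8 but *Gpnmb* were reported by the study as more than 2-fold higher on these same arrays. The list was filled with that known, so its count and median are not independent of these data. Of these 8, 4 lay in the dimmest 25% of expressed probe sets, where 25.6% of all probe sets were past 2-fold. These 4 had WT signals below the WT array median and counted as expressed only through the CD47 KO array, where they were higher. Only *Cst7* lay in the brightest 25%. *Cst7*, which encodes a cysteine proteinase inhibitor, had 678 and 2136 and *Apoe*, the apolipoprotein gene, had 1642 and 2746. The difference between this list and the 9 genes was not tested. Immediate early genes and others that respond to cell isolation had 9 of 18 higher and 9 lower and a median of 0.02. *Fos*, the best known of them, had 9266 and 9212. Pericyte and smooth muscle markers had 7 of 11 lower and a median of -0.41, and neuronal markers had a median of 0.04. The median of the oligodendrocyte markers was 0.02, and -0.42 without the _x_at and _s_at probe sets.

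**Figure D3:**
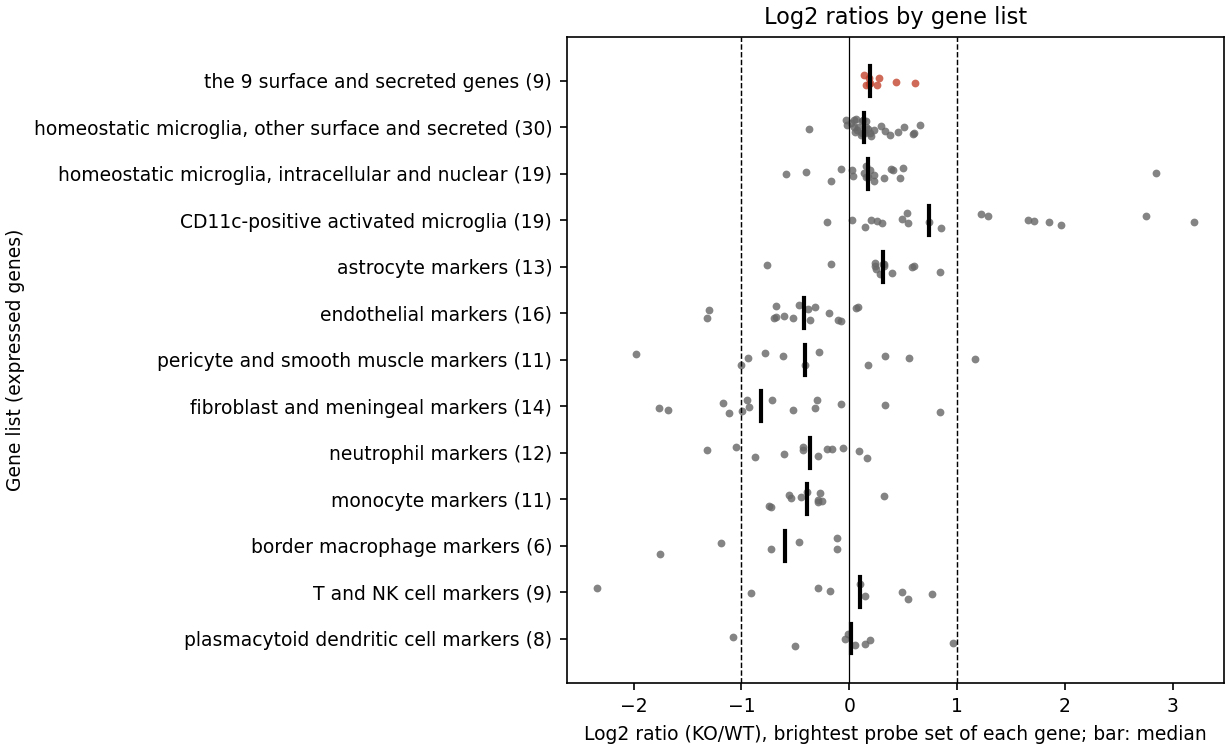
Log2 ratio (KO/WT) of the brightest probe set of each expressed gene (points, number of genes in parentheses) by gene list, with the median as a bar and dashed lines at 2-fold. The 9 genes (red) all lie between 0.13 and 0.61. So do 14 of the 30 other surface and secreted homeostatic genes and 7 of the 19 genes of CD11c-positive activated microglia. The expressed markers of border macrophages all lie below 0. The points of *Mmp12* (3.20) and *Sall3* (2.85), farthest to the right with *Gpnmb* (2.75), have WT signals below the 25th percentile of the WT array (43.0).

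Promoter sequences from RefSeq (GRCm38.p6), each 300 bases long with 250 before the annotated start and 50 after it, were at hand for 5 of the 9 genes. The promoters of *Tmem119*, *Gpr34*, *Selplg* and *Lag3* were not analysed here. The core of PU.1 binding sites was searched on both strands as GAGGAA, whose other strand reads TTCCTC, since PU.1 governs microglial genes. It was found once in *Siglech* and once in *Aif1*, and not in *Olfml3*, *Sparc* or *Slc2a5*, and 28.3% of all 32851 promoters in the table hold it. In *Siglech* the match runs from base -4 to base 2, counted from 1 at the annotated start with no base 0, and in *Aif1* from base -7 to -2. The composite motif of PU.1 with an IRF factor, GGAA and GAAA with any 2 bases between them, was found on either strand in none of the 5 and in 2.72% of all promoters, and TATAAA in none and 13.6%. Both promoters with the match are shown, with the match in capitals, beside that of *Olfml3*, the gene that stood out most among bright probe sets. They lie at chr7:55767934-55768233 (plus strand), chr17:35176003-35176302 (minus strand) and chr3:103737952-103738251 (minus strand).
Siglech: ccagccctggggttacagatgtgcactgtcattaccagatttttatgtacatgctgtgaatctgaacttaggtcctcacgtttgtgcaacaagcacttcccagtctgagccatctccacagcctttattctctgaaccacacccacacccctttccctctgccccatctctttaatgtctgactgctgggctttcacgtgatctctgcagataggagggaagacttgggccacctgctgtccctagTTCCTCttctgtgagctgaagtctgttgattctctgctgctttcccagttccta
Aif1: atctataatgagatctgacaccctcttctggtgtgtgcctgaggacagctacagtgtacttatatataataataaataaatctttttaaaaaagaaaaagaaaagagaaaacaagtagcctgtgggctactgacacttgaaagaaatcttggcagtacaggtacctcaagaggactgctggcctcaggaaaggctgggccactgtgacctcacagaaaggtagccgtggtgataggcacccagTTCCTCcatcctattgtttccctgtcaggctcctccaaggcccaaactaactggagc
Olfml3: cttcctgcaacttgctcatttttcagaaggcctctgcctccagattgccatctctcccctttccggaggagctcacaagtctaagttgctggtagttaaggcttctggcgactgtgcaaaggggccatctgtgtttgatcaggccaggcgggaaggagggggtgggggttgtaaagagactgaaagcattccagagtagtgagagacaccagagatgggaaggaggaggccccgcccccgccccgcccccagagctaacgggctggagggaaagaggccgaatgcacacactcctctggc
These are matches of letters, and binding was not measured.

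The genes next to the 9 on the chromosome were also compared, from the order of protein-coding genes in the RefSeq table. This set was added after the values of the 9 genes were known. *Tmem119* and *Selplg* are direct neighbours, with Log2 ratios of 0.15 and 0.19. On their outer sides, *Iscu*, an iron-sulfur cluster gene, had 0.00147, and *Coro1c*, a coronin gene, had Log2 ratios of 0.50, -0.32 and -0.10 on its 3 expressed probe sets. *Gpr34* lies within *Cask*, which encodes a scaffold kinase of synapses, and the 4 *Cask* probe sets had Log2 ratios of 0.94, 0.55, 0.34 and 0.75. *Lst1*, a leukocyte gene next to *Aif1*, had signals of 7071 and 6620, and *Ptms*, a parathymosin gene next to *Lag3*, had 4670 and 4722. Of the 17 neighbouring genes, 14 were named on the array and 11 of these were expressed, of which 8 were higher and 3 lower, with a median of 0.02.

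**Figure D4:**
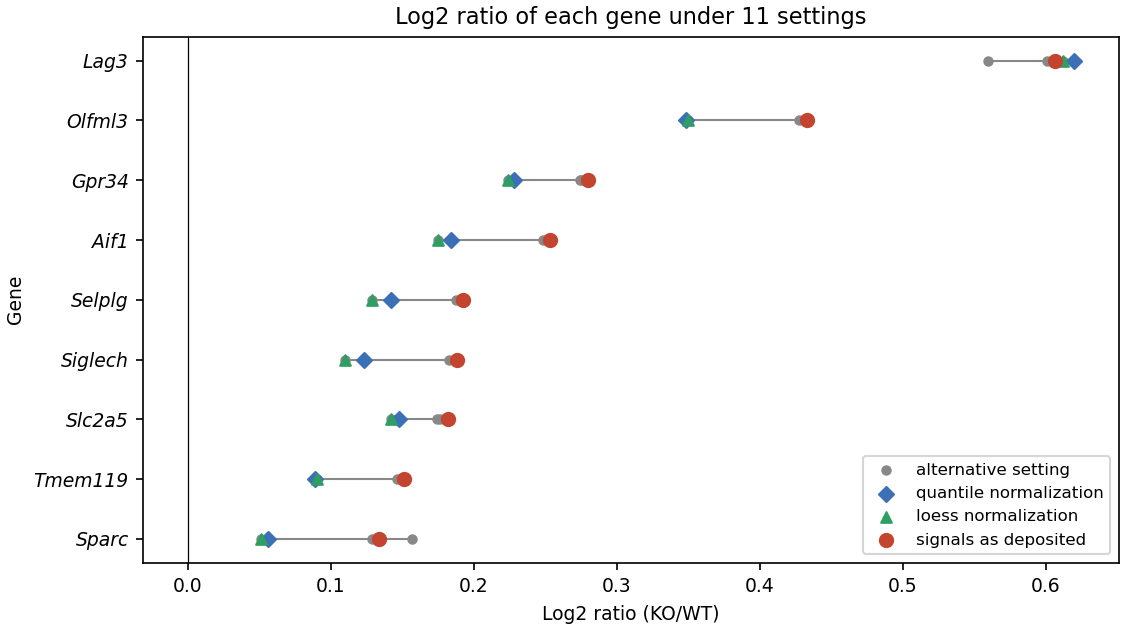
Log2 ratio (KO/WT) of each of the 9 genes from the signals as deposited (large circles) and under 10 alternative settings (small markers), with quantile and loess normalization marked. Every value lies above 0, and for all genes but *Lag3* the lowest values are those after quantile or loess normalization, down to 0.05 for *Sparc*.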

How the data were processed

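Total RNA of brain mononuclear cells, pooled by genotype, was amplified from 20 ng and hybridised to 1 array per pool. The authors processed the scans with the Expression Console Software, and the deposited intensity values are MAS5 signals, with a trimmed mean of 500.002 on both arrays. Of 45101 probe sets, 64 are controls and 34945 others carry exactly 1 symbol in the platform annotation. Symbols were updated by gene identifier where the RefSeq table (GRCm38.p6) holds it, for 34741 of them. Detection calls were not used here.

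No offset was added before the Log2 ratio. Probe sets at or above the median of their array in either genotype were taken as expressed, and a gene takes the value of its brightest one. With 1 array per genotype no test was made. The 23 companion lists hold 342 genes, 316 of them named. The 9 genes and all lists were chosen with earlier results of these data known. Genes named from the lists are among the 4 brightest or the 3 with the largest Log2 ratio in either direction of each list. *Apoe*, *Csf1r*, *Cst7*, *Fcrls*, *H2-Eb1*, *Havcr2*, *Lcp1*, *P2ry12*, *Spi1*, *Syk*, *Tgfbr1*, *Tgfbr2*, *Tpst1*, *Tpst2* and *Cd4* fall outside that rule and were named for their role after their values were seen. *Gas6* and *Lair1*, also outside the rule, were named for their lower values. The 10 alternatives changed the signal threshold, the normalization, the treatment of low signals or the probe set. The calculation was tested on simulated arrays. The number of arrays limits the precision. Python 3.11.15, statsmodels 0.14.6 and pandas 2.3.3 were used.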

Additional observations from a re-analysis of the deposited data

How the results depend on the processing

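All 9 genes stayed higher in CD47 KO cells under each of the 10 alternatives, except that *Aif1* has no value without the _x_at and _s_at probe sets, where 8 of 8 genes were higher. The threshold settings, the raised low signals and that removal used the same values for these genes, so they could not change the direction. The mean over probe sets changed only *Sparc*. The median Log2 ratio of the listed genes stayed between 0.14 and 0.19. With no signal threshold, 1 gene passed 2-fold, which was *Sparc* through its dim probe set. Loess normalization moved *Sparc* from 0.13 to 0.05, *Tmem119* from 0.15 to 0.09 and *Siglech* from 0.19 to 0.11, and the median of the brightest 25% from 0.05 to 6.13e-05. Of the companion lists, the median of other surface and secreted homeostatic genes ranged from 0.08 to 0.14 and was lowest after loess and quantile normalization. The median of the sugar transporter list ranged from -0.34 to 0.02, that of the SPARC relatives from -0.06 to 0.40, that of the Siglec list from -0.12 to 0.38 and that of the T and NK cell markers from -0.04 to 0.32. The medians of the selectin, LAG-3 ligand, plasmacytoid dendritic cell, oligodendrocyte, neuronal and immediate early lists also took either sign. No paired analysis was possible because each genotype has 1 array. No setting can show the spread between mice, and pooling leaves it unknown.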
